A study of Homo sapiens with 8 samples.

Results

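The 40 genes described here encode the kinases, cyclins, checkpoint proteins, kinetochore proteins, motors and chromosome proteins of mitosis. They were chosen by name, as the rows of the deposited count table whose gene symbol was on a fixed list, and all 40 were found among its 23562 rows. RNA was sequenced from OCI-AML5, a suspension cell line established from human acute myeloid leukemia. The 4 sgCEBPD libraries came from cells given lentiCRISPRv2, a lentiviral vector for Cas9 and a guide RNA, with guides against CEBPD, the gene of the transcription factor C/EBP delta. The 4 sgControl libraries came from cells given the same vector with a control guide, so the cells of both groups carried Cas9. Each library held a different guide (sgCEBPD 1 to 4 and sgControl 1 to 4), and the sources used here give neither the time after transduction nor whether cells were pooled or cloned. Nothing in the labels shows separate transductions, and the p-values below therefore describe the spread among these libraries and no more.

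Mitosis is driven by CDK1 bound to cyclin A or cyclin B. Kinetochores tie chromosomes to spindle microtubules, the spindle checkpoint holds back the anaphase-promoting complex until every chromosome is attached, and that complex then marks cyclin B and securin for destruction. The transcripts of these genes accumulate in G2 and mitosis. The MuvB complex with B-MYB and FOXM1 acts at a promoter element called the CHR, often with NF-Y at CCAAT boxes, whereas genes of S phase entry are mostly controlled by E2F factors. In bulk RNA, fewer cells in mitosis and less transcript per cell cannot be told apart.

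The promoter sequences show both kinds of element. RefSeq promoters (GRCh38.p14, from 250 bases before to 50 after the transcript start) were matched by symbol for 33 of the 40 genes. A search on both strands for CCAAT found a match in 27 of the 33 (81.8%), against 42.8% of the genes tested that had a promoter. The CHR, searched on both strands as TTTGAA or TTCGAA, was in 26 of 33 (78.8%), against 15.2% of those genes. Both elements were in 22 of 33 (66.7%), against 6.37%. An E2F element, searched as TTTCCCGC or TTTGGCGC, was in 2 of 33 (6.06%) and in 25 of 53 promoters of a list of G1/S and DNA replication genes (47.2%), against 4.69% of genes tested. In that G1/S list the CHR was in 9.43% and CCAAT in 60.4%. In a list of other mitosis genes, of which 89 had a promoter, the CHR was in 60.7% and CCAAT in 62.9%. The C/EBP palindrome TTGCGCAA was in 0 of 33, against 0.302% of genes tested. A match describes letters in this window, and binding was not measured.

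4 promoters are printed as the 250 bases before the start, 5′ to 3′ on the gene's strand, with CCAAT boxes and CHR letters in capitals on either strand. They are shown because MKI67 and CDC20 were among the genes lowest in sgCEBPD 3, and ECT2 and KIF2C among the highest. They do not represent the 2 sides. CENPA and MAD2L1 also had promoters and were lower than CDC20. Of genes above all 7 other libraries, 8 of 12 promoters held a CHR and 8 of 12 a CCAAT box. Of those below, 9 of 11 held a CHR and 10 of 11 a CCAAT box.
MKI67, chr10:128126424-128126673, minus strand: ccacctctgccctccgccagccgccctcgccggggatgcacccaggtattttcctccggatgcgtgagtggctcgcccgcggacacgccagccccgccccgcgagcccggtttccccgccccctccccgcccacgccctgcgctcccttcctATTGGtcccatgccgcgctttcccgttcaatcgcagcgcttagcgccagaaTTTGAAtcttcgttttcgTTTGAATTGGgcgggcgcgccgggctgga
CDC20, chr1:43358731-43358980, plus strand: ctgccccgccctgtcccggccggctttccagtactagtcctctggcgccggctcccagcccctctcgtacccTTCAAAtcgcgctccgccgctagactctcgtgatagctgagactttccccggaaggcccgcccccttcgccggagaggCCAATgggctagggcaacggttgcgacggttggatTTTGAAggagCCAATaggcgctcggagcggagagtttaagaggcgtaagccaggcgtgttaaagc
ECT2, chr3:172750476-172750725, plus strand: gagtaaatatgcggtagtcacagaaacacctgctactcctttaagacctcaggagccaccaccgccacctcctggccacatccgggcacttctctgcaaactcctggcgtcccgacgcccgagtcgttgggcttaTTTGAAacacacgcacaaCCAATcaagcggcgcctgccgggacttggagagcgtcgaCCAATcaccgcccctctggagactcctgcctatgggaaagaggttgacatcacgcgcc
KIF2C, chr1:44739587-44739836, plus strand: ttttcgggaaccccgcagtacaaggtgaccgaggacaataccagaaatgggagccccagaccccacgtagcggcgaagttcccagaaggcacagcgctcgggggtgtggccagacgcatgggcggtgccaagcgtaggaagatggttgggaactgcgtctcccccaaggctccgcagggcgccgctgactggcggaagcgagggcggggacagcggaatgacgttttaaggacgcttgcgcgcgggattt
MKI67 and CDC20 each had 2 CCAAT boxes and 2 CHR matches in this window, and in MKI67 a CHR and a CCAAT box overlap. ECT2 had 2 CCAAT boxes and 1 CHR, and KIF2C had 0 of each.

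**Figure D1:**
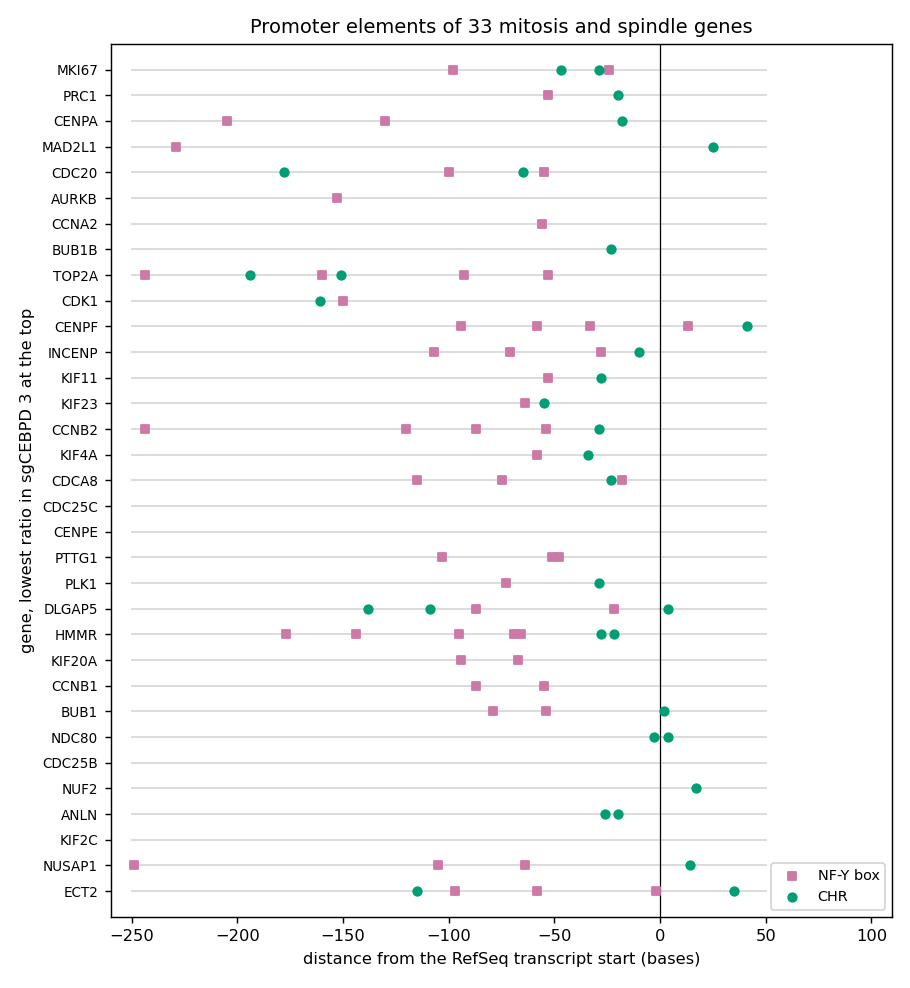
Positions of CCAAT boxes (pink squares, labelled NF-Y box) and CHR matches (green circles) in 1 promoter of each of the 33 genes, in bases from the RefSeq transcript start, with genes ordered from the lowest to the highest ratio in sgCEBPD 3. The median position was -26 for the CHR and -75 for the CCAAT box.

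In the plot of promoter elements, 26 of 33 CHR matches and 39 of 55 CCAAT boxes lay within 100 bases of the start. The CHR stood nearer the start, and CDC25B, CDC25C, CENPE and KIF2C had neither element in the promoter shown.

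Library totals were 10217751 to 11521209 counts. CEBPD, the targeted gene, stood at 107, 209, 195 and 164 CPM in sgCEBPD 1 to 4, against 216, 204, 205 and 202 CPM in sgControl 1 to 4 (CPM are counts scaled to the library size by the TMM method). The groups overlapped in sgCEBPD 2, and an exact permutation test over libraries, two-sided, returned p = 0.114 (smallest possible 0.0286). Its log2 fold change was -0.29 (SE 0.18, adjusted p = 0.551 in edgeR), and -0.12 without sgCEBPD 1. Cas9 edits need not lower a transcript, and this level does not check the guides. The library sgCEBPD 3 stood apart: its correlations with the other 7 across genes were 0.912 to 0.931, against 0.972 to 0.989 among those 7. The summed CPM of 8 myeloid markers was 847 to 1210 in sgCEBPD and 924 to 1060 in sgControl. Of these, ANPEP and CSF2RA were at or under 1.08 CPM in every library. Among the others, CD33 was at 99 to 107 CPM in sgCEBPD and 122 to 143 CPM in sgControl, without overlap. That order was shown by 4.62% of all genes. CSF3R was at 418 CPM in sgCEBPD 3, 170 to 226 CPM in the other sgCEBPD libraries and 288 to 308 CPM in sgControl, and SPI1 at 433, 310 to 329 and 297 to 319 CPM in the same order. MPO was lowest in sgCEBPD 3 at 11.8 CPM, and LYZ (80.9 CPM) and CEBPA (160 CPM) lay within the range of the others there. Sums of 3 of 5 T cell markers were 0 to 53.2 CPM in sgCEBPD and 0 to 0.643 CPM in sgControl, and nearly all of the highest sum was CD3D at 52.7 CPM in sgCEBPD 3, with CD3G at 0.393 and CD5 at 0.0982 CPM. B cell, erythroid, fibroblast and epithelial sums were at most 6.03 CPM in any library. Within the B cell sum, CD79A was at 1.68 to 3.05 CPM in sgCEBPD and 5.14 to 5.95 CPM in sgControl, without overlap. CD79B, near 0, went the other way, at 0.187 to 0.491 CPM against 0 to 0.0908 CPM. CDKN2A had 0 counts in sgCEBPD 3 and at least 45.2 CPM in each of the other 7 libraries. Whether the library labelled sgCEBPD 3 comes from the same culture as the other 7 was not tested, nor was the part of these differences in its results, and its values below are those of the library so labelled. The test between groups was made with and without it.

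None of the mitosis and spindle genes passed the test between sgCEBPD and sgControl libraries. Their summed level was 5638, 5820, 5303 and 5592 CPM in sgCEBPD 1 to 4, against 5721, 5710, 5682 and 5676 CPM in sgControl 1 to 4. Of the 40 genes, 38 passed the filter on low counts. In edgeR's quasi-likelihood test over 8 libraries, 0 of the 38 had an adjusted p under 0.05, against 0.0795% of 13838 genes (0.00723% higher and 0.0723% lower in sgCEBPD). Without sgCEBPD 3 it was again 0 of 38, against 2.01% of 14047 genes (0.705% higher and 1.31% lower). The count was also 0 by DESeq2 and by limma-voom in both comparisons. At an unadjusted p under 0.05 stood 1 of 38 (2.63%, against 11.4% of all genes) with 8 libraries and 5 of 38 (13.2%, against 15.5%) with 7.

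The sizes were small as well. Log2 fold changes, sgCEBPD over sgControl, ran from -0.21 to 0.23 with 8 libraries, with a median of 0.01 and a median standard error (SE) of 0.08. Without sgCEBPD 3 they ran from -0.14 to 0.28, with a median of 0.00 and a median SE of 0.06, and the lowest adjusted p in edgeR was 0.126. The median over all genes was 0.00 in both. Of the 38 genes, 21 had a positive and 17 a negative value with 8 libraries, and 20 and 18 without sgCEBPD 3. Control means ran from 13.8 CPM for CDC25C to 934 CPM for MKI67, and the coefficient of variation over the 4 controls had a median of 3.81%. Per kilobase of exon, the control level was highest for TOP2A (109 CPM per kb) and CDC20 (98.6) and lowest for CDC25C (4.13), with a median of 24.3.

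The chromosome proteins had the largest levels. MKI67 encodes Ki-67, the coat protein of mitotic chromosomes that is used as a proliferation marker. It stood at 823, 902, 648 and 855 CPM in sgCEBPD 1 to 4, against 931, 980, 907 and 920 CPM in sgControl 1 to 4. All 4 sgCEBPD libraries were below all 4 controls; 4.62% of all genes showed that order, and 7.49% showed it without sgCEBPD 3. Its log2 fold change was -0.21 (SE 0.10, adjusted p = 0.45 in edgeR) and, without sgCEBPD 3, -0.12 (SE 0.04, adjusted p = 0.216 in edgeR). TOP2A, the topoisomerase that untangles sister chromatids, stood at 747, 792, 617 and 699 CPM in sgCEBPD 1 to 4, against 699, 687, 708 and 715 CPM in sgControl 1 to 4. The groups overlapped.

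Outside sgCEBPD 3, CDK1 and its regulators other than CDC25C kept close to the controls. CDK1, the kinase itself, stood at 123, 126, 114 and 126 CPM in sgCEBPD 1 to 4, against 127, 124, 125 and 133 CPM in sgControl 1 to 4. CCNB1, cyclin B1, stood at 144, 130, 158 and 145 CPM in sgCEBPD 1 to 4, against 143, 150, 132 and 140 CPM in sgControl 1 to 4. CDK1 was lowest and CCNB1 highest in sgCEBPD 3, although the proteins act as 1 complex. CCNA2, cyclin A2, stood at 130, 131, 117 and 130 CPM in sgCEBPD 1 to 4, against 141, 130, 135 and 143 CPM in sgControl 1 to 4. FOXM1, a transcription factor of G2 and mitosis genes, stood at 61.4, 58.4, 43.2 and 62.7 CPM in sgCEBPD 1 to 4, against 61.8, 64.6, 68.4 and 65.5 CPM in sgControl 1 to 4. For all of these the groups overlapped. CDC25C, a phosphatase that activates CDK1, averaged 16.7 ± 1.99 CPM in sgCEBPD 1, 2 and 4 and 13.8 ± 1.29 CPM in sgControl (SD, n = 3 and 4), and the edgeR log2 fold change was 0.28 (SE 0.12, adjusted p = 0.283), or 0.18 when sgCEBPD 2 was left out as well. With 8 libraries it was 0.23 (SE 0.12, adjusted p = 0.493 in edgeR). It had the lowest count of the 38. CCNB2, cyclin B2, stayed between 91.2 and 99.1 CPM in all 8 libraries.

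Among the mitotic kinases, PLK1, which acts at centrosomes and kinetochores, stood at 162, 169, 188 and 172 CPM in sgCEBPD 1 to 4, against 184, 171, 174 and 175 CPM in sgControl 1 to 4. AURKA, the centrosomal Aurora kinase, stood at 93.8, 106, 128 and 92.7 CPM in sgCEBPD 1 to 4, against 90.2, 102, 90.0 and 94.1 CPM in sgControl 1 to 4. Both were highest in sgCEBPD 3 and overlapped otherwise. TPX2, the protein that activates Aurora A on the spindle, averaged 265 ± 6.56 CPM in sgCEBPD and 267 ± 7.20 CPM in sgControl (SD, n = 4 each). AURKB, the kinase of the chromosomal passenger complex, stood at 69.5, 74.3, 57.0 and 73.3 CPM in sgCEBPD 1 to 4, against 59.6, 69.7, 67.4 and 69.8 CPM in sgControl 1 to 4. The lowest control was close to sgCEBPD 3. Its partners INCENP, BIRC5 (survivin) and CDCA8 (borealin) had log2 fold changes of -0.01, 0.03 and 0.03 with 8 libraries and 0.02, 0.03 and 0.04 without sgCEBPD 3.

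Of the spindle checkpoint genes, BUB1B, which encodes BUBR1, stood at 101, 99.0, 86.8 and 101 CPM in sgCEBPD 1 to 4, against 102, 101, 99.7 and 98.3 CPM in sgControl 1 to 4. MAD2L1, which encodes MAD2, stood at 116, 101, 80.4 and 98.1 CPM in sgCEBPD 1 to 4, against 105, 97.5, 97.7 and 103 CPM in sgControl 1 to 4. In both, sgCEBPD 3 was lowest and the rest overlapped. The anaphase-promoting complex works with CDC20, its activator, and UBE2C, its ubiquitin-conjugating enzyme. CDC20 stood at 201, 192, 167 and 222 CPM in sgCEBPD 1 to 4, against 197, 202, 210 and 197 CPM in sgControl 1 to 4. UBE2C stood at 61.2, 68.7, 43.3 and 60.2 CPM in sgCEBPD 1 to 4, against 48.0, 56.4, 55.7 and 52.0 CPM in sgControl 1 to 4. The sgCEBPD libraries 1, 2 and 4 lay above all controls, an order shown by 6.92% of all genes, while sgCEBPD 3 lay below all controls. Without sgCEBPD 3 its log2 fold change was 0.26 (SE 0.07, adjusted p = 0.126 in edgeR), the lowest adjusted p of the 38.

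Spindle and motor proteins gave small values. HMMR, a spindle protein that binds microtubules, stood at 90.5, 85.4, 85.8 and 81.6 CPM in sgCEBPD 1 to 4, against 77.9, 78.2, 80.3 and 77.4 CPM in sgControl 1 to 4. All 4 sgCEBPD libraries were above all 4 controls; 4.96% of all genes showed that order. Its log2 fold change was 0.13 (SE 0.06, adjusted p = 0.445 in edgeR) with 8 libraries and 0.13 (SE 0.05, adjusted p = 0.26 in edgeR) without sgCEBPD 3. KIF2C, the kinesin MCAK that takes apart microtubule ends, stood at 89.3, 95.9, 112 and 90.9 CPM in sgCEBPD 1 to 4, against 81.8, 82.6, 89.9 and 84.7 CPM in sgControl 1 to 4. The groups overlapped between sgCEBPD 1 and sgControl 3, and the log2 fold change was 0.20 (SE 0.09, adjusted p = 0.437 in edgeR). Without sgCEBPD 3 it was 0.12 (SE 0.05, adjusted p = 0.314 in edgeR). The other kinesins KIF11, KIF20A, KIF23 and KIF4A had log2 fold changes between -0.03 and 0.02 with 8 libraries and between -0.05 and 0.04 without sgCEBPD 3. ECT2, the exchange factor that activates RhoA for cytokinesis, stood at 48.8, 55.9, 81.4 and 50.9 CPM in sgCEBPD 1 to 4, against 61.1, 52.3, 58.3 and 56.3 CPM in sgControl 1 to 4. CENPA, the histone of centromeres, stood at 33.5, 33.7, 28.1 and 35.5 CPM in sgCEBPD 1 to 4, against 36.9, 39.2, 33.2 and 34.6 CPM in sgControl 1 to 4. In sgCEBPD 3, ECT2 was above and CENPA below all 7 other libraries.

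In sgCEBPD 3, which is 1 library and has no replicate, these genes lay on both sides of the control level. The median log2 ratio to the control mean was 0.02, against -0.01 for all genes tested. The SD of the ratio over the 38 genes was 0.25 in sgCEBPD 3, against 0.09 to 0.13 in sgCEBPD 1, 2 and 4 and 0.05 to 0.07 in the controls. All genes were spread more widely there as well, with a median absolute ratio of 0.40, against 0.12 to 0.15 in sgCEBPD 1, 2 and 4. Below all 7 other libraries stood 15 of the 38 genes (39.5%, against 34.9% of all genes), and 14 stood above all 7 (36.8%, against 34.8%). Both shares are near the background. The exact 95% Poisson interval of the count in sgCEBPD 3, which covers counting error only, also lay outside the other 7 for 13 of the 15 lower and 8 of the 14 higher genes. This was not counted over all genes, so it has no background beside it and nothing is drawn from it. With library totals in place of TMM, 17 genes stood below and 8 above all 7. The median ratio of all genes tested was then -0.09. Shares over all genes were not counted under that setting, so these 2 counts have no background.

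The widest lower ratios belonged to FOXM1 (-0.59, or 66.4% of the control mean), MKI67 (-0.53, 69.3%), CENPA (-0.35), MAD2L1 (-0.32), UBE2C (-0.29), CDC20 (-0.27), and AURKB and CCNA2 (both -0.22). BUB1B (-0.21), BUB3, a partner of BUB1 and BUBR1 (-0.19), TOP2A (-0.19) and CDK1 (-0.16) followed. CENPF of the kinetochore (-0.15), INCENP (-0.11) and TPX2 (-0.04) completed the 15. These 15 came from 7 of the 10 roles, and of the 11 with a promoter, 9 held a CHR and 10 a CCAAT box. FOXM1 alone passed 1.5-fold lower, 2.63% of the 38 against 17.3% of all genes. It did not pass with DESeq2 size factors, with a mean of at least 5 CPM, with sgCEBPD 1, 2 and 4 as reference, or without sgControl 3.

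The highest ratios belonged to ECT2 (0.52, 143% of the control mean), AURKA (0.44), KIF2C (0.41), the checkpoint kinase TTK (0.32), the cytokinesis scaffold ANLN (0.30) and the kinetochore gene NUF2 (0.28). CDC25B (0.21), the checkpoint kinase BUB1 (0.17), NDC80, the partner of NUF2 (0.17), CCNB1 (0.16), the kinesin KIF20A (0.14), the spindle protein DLGAP5 (0.10), PLK1 (0.09) and the securin gene PTTG1 (0.08) were also above all 7. PTTG1 has close copies in the genome, so its count is uncertain. No gene passed 1.5-fold higher, against 17.2% of all genes. Of the 12 with a promoter, 8 held a CHR and 8 a CCAAT box. The remaining 9 genes lay within the range of the others: KIF11, KIF23, KIF4A, CCNB2, CDC25C, BIRC5, CDCA8, CENPE and HMMR. Library totals turned the sign of BIRC5, CCNB2, CDC25C, CDCA8, CENPE, KIF4A and PTTG1, all between 0.01 and 0.08 with TMM.

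**Figure D2:**
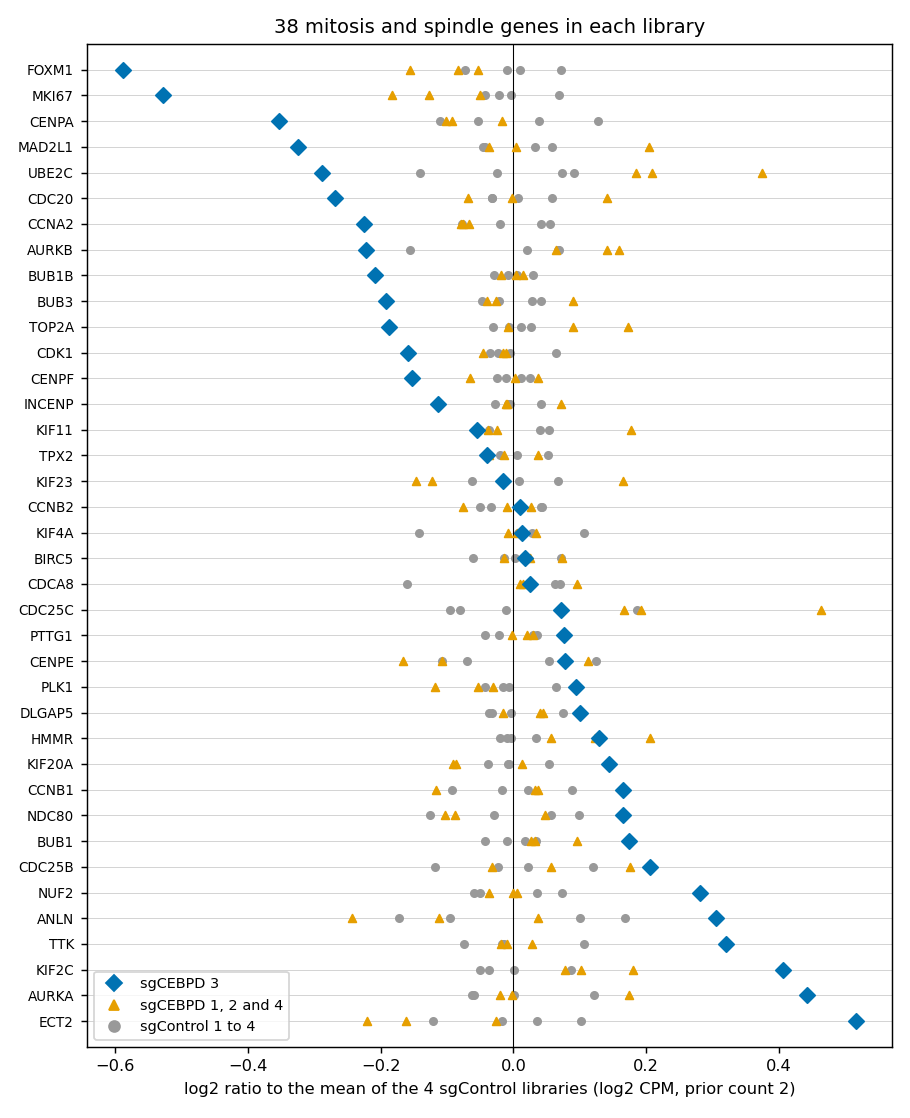
Log2 ratio of each library to the mean of the 4 sgControl libraries (x axis, log2 CPM with a prior count of 2) for the 38 genes that passed the filter. Blue diamonds are sgCEBPD 3, orange triangles sgCEBPD 1, 2 and 4, and grey circles sgControl 1 to 4; sgCEBPD 3 runs from -0.59 for FOXM1 to 0.52 for ECT2.

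**Figure D3:**
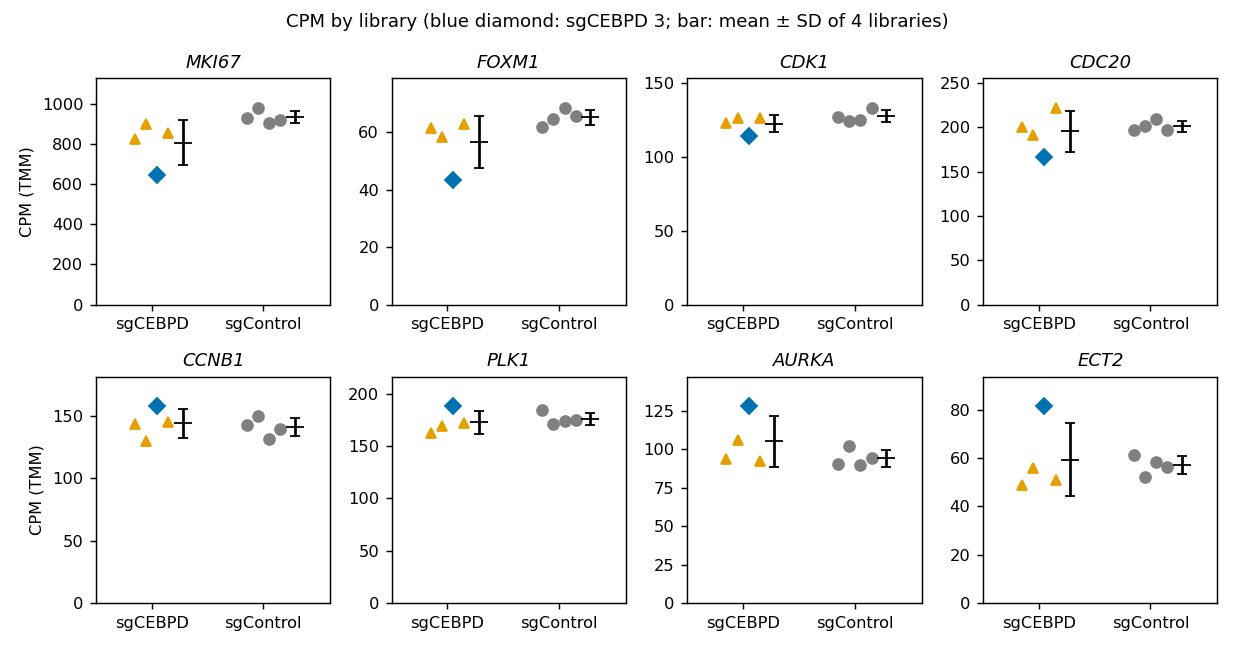
TMM-scaled CPM of 8 of the genes in every library (y axis from 0), with sgCEBPD left and sgControl right, sgCEBPD 3 as a blue diamond, and the mean ± SD of 4 libraries as a bar. MKI67 and FOXM1 are lowest in sgCEBPD 3 (648 and 43.2 CPM), and AURKA and ECT2 highest (128 and 81.4 CPM).

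The plot of ratios shows the order of the genes in sgCEBPD 3. Both cytokinesis genes (ECT2 and ANLN) were above all 7 other libraries, and both chromosome proteins (MKI67 and TOP2A) were below. Over all genes 34.8% were above and 34.9% below all 7, and with 2 genes per role no pattern of these roles is drawn. Other roles were split. CDK1 and CCNA2 were below and CCNB1 above. BUB1B, BUB3 and MAD2L1 were below and BUB1 and TTK above. CENPA and CENPF were below and NDC80 and NUF2 above. The plot of levels shows the outermost genes, which lay between 66.4% (FOXM1) and 143% (ECT2) of the control mean. Within ±0.2 of the control mean lay 22 of the 38 genes in sgCEBPD 3, and 34, 36 and 37 in sgCEBPD 1, 2 and 4. That share was not counted over all genes, but the wider spread in sgCEBPD 3 was not particular to these 38. Their median absolute ratio was 0.17 in sgCEBPD 3 and 0.04 to 0.07 in sgCEBPD 1, 2 and 4. Over all genes it was 0.40 and 0.12 to 0.15.

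Genes of S phase entry and MYC were lower in sgCEBPD 3. MYC, the growth-promoting transcription factor, was at 891, 774, 471 and 824 CPM in sgCEBPD 1 to 4, against 880, 964, 840 and 849 CPM in sgControl 1 to 4. MCM4, a subunit of the replicative helicase, was at 863, 764, 379 and 753 CPM in sgCEBPD 1 to 4, against 809, 740, 827 and 802 CPM in sgControl 1 to 4. CCNE1, cyclin E1, was at 18.5 CPM in sgCEBPD 3, 29.1 to 34.7 in the other sgCEBPD libraries and 29.7 to 32.9 in sgControl, and E2F1 was at 58.7, 72.6 to 86.5 and 67.5 to 81.4 CPM in the same order. Each was lowest in sgCEBPD 3. None of these genes passed the test with 8 or with 7 libraries.

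As lists, the median log2 ratio in sgCEBPD 3 was 0.02 for the 38 mitosis and spindle genes, -0.71 for 62 genes of G1/S and DNA replication and -0.68 for MYC and 38 of its targets. The 38 genes thus stood 0.73 above the G1/S median and 0.69 above the MYC median, and these differences were between -0.06 and 0.06 in the other 7 libraries. In the G1/S list 55 of 62 genes (88.7%) were below all 7 libraries, against 34.9% of all genes, and 39 (62.9%) were over 1.5-fold lower, against 17.3%. In the MYC list 37 of 39 (94.9%) were below all 7 and 25 (64.1%) were over 1.5-fold lower, against the same shares of all genes. The median absolute ratio in sgCEBPD 3 was 0.17 for the mitosis and spindle genes, 0.72 for G1/S, 0.68 for MYC and 0.40 for all genes. This is a comparison of medians in 1 library, and no test was made.

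**Figure D4:**
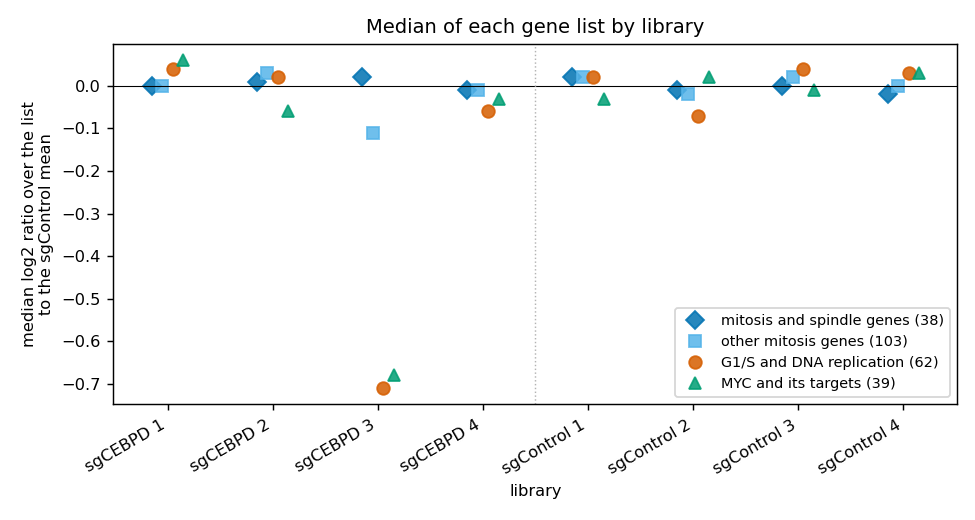
Median log2 ratio to the sgControl mean (y axis) of 4 gene lists in each library (x axis), sgCEBPD left and sgControl right. In sgCEBPD 3 the 38 mitosis and spindle genes are at 0.02 and 103 other mitosis genes at -0.11, while G1/S and DNA replication is at -0.71 and MYC and its targets at -0.68.

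In the plot of list medians, all 4 lists lay between -0.07 and 0.06 in the 7 libraries other than sgCEBPD 3. With 8 libraries the G1/S and MYC lists had median log2 fold changes of -0.14 and -0.15, against 0.01 for the mitosis and spindle genes, and without sgCEBPD 3 all 3 were at 0.00. In both comparisons 0 of the 62 and 0 of the 39 genes passed by edgeR, DESeq2 or limma-voom, and in edgeR 0 and 1 had an unadjusted p under 0.05 with 8 libraries, and 4 and 2 with 7. Among genes with a mean of at least 5 CPM, the lowest ratios to the controls in these lists in sgCEBPD 3 were those of CDC25A, the phosphatase that activates CDK2 (30.8 CPM, control mean 80.6), MCM10 of the replication fork (28.6, control mean 69.7), the pseudouridine synthase PUS7 (30.6, control mean 83.0) and CAD of pyrimidine synthesis (104, control mean 270). Below that mean, the cyclin D1 gene CCND1 was lower still, with 1 count (0.0982 CPM) in sgCEBPD 3, 1.04 to 10.1 CPM in the other sgCEBPD libraries and 0.734 to 17.6 CPM in sgControl.

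A wider list of mitosis genes stood between. Of the 103 that passed the filter, 48 (46.6%) were below and 23 (22.3%) above all 7 libraries in sgCEBPD 3, against 34.9% and 34.8% of all genes. Of the 103, 7 were over 1.5-fold lower and 1 over 1.5-fold higher, where 17.3% and 17.2% of all genes were. Ratios in the list ran from -1.13 to 1.33. With 8 and with 7 libraries 0 passed by edgeR, DESeq2 or limma-voom, while 6 and 9 of the 103 had an unadjusted p under 0.05 in edgeR, against 11.4% and 15.5% of all genes. PKMYT1, the kinase that inhibits CDK1, was at 31.4 CPM in sgCEBPD 3, against a control mean of 68.9 CPM, and NCAPD3, a subunit of condensin II, at 107 CPM against 184 CPM. The widest ratio was a rise, that of the spindle checkpoint gene MAD1L1, chosen after its values were seen. It was at 10.7 CPM against 4.20 CPM. Of the regulators at the CHR, chosen after their values were seen, MYBL2 (B-MYB) was at 111 CPM in sgCEBPD 3, against a control mean of 192 CPM, and the MuvB subunit gene LIN9 at 34.2 CPM against 35.2 CPM. The MuvB subunit genes LIN54 (26.2 CPM against 28.6) and LIN52 (16.1 against 17.4) had ratios of -0.12 and -0.10.

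CDK inhibitors differed in direction in the same library. In a list of CDK inhibitors and pocket proteins, 8 genes were tested. Of these, 4 (50%) were above and 3 (37.5%) below all 7 other libraries, against 34.8% and 34.9% of all genes. CDKN1A, which encodes p21, was at 159, 206, 463 and 192 CPM in sgCEBPD 1 to 4, against 215, 259, 147 and 250 CPM in sgControl 1 to 4. CDKN2A, which encodes p16 and ARF, had 0 counts in sgCEBPD 3, against 47.7 to 55.7 CPM in the other sgCEBPD libraries and 45.2 to 53.3 CPM in sgControl. Set at a floor of 3 counts, it was at least 165-fold lower than the control mean of 48.5 CPM. RBL1, the pocket protein p107, was at 58.3 CPM in sgCEBPD 3, against a control mean of 76.0 CPM. The inhibitor gene CDKN2D, chosen after its values were seen, was at 42.8 CPM in sgCEBPD 3, against a control mean of 15.9 CPM. Whether these values bear on the mitosis genes was not tested.

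NUSAP1 and PRC1, which bind and bundle spindle microtubules, did not pass the filter. NUSAP1 had 7, 4, 7 and 5 counts in sgCEBPD 1 to 4, against 13, 2, 9 and 2 counts in sgControl 1 to 4. PRC1 had 5, 7, 5 and 9 counts in sgCEBPD 1 to 4, against 15, 7, 7 and 6 counts in sgControl 1 to 4. Both levels were far below the other 38 genes, at 0.203 and 0.144 CPM per kb of exon in the controls. In GENCODE release 29 (GRCh38), NUSAP1 lies on chromosome 15 from 41332694 to 41381050, and 62.2% of its exonic bases are shared with the same-strand gene AC087721.2. PRC1 lies on chromosome 15 from 90966038 to 90995629, and 57.6% are shared with the same-strand gene AC068831.7. Among the other 38 genes, 24 share no exonic base and the highest share is 15.9%, for FOXM1 with ITFG2 on the opposite strand. Whether this overlap lowered the counts was not tested, and no statement on NUSAP1 or PRC1 is drawn from them.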

How the data were processed

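Per the labels, polyadenylated RNA from a phenol-chloroform extraction was made into libraries. The authors deposited unnormalised read counts for each gene. The submitters' processing notes name FastQC, HISAT2, DESeq2 and the build hg38. How reads were counted, whether strand was used and which annotation applied are not given in the sources used here.

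The test was the robust quasi-likelihood test of edgeR 4.0.16 (R 4.3.3) on filterByExpr genes with TMM scaling and a single term for group. The Benjamini-Hochberg adjustment ran over the whole table of genes passing the filter, with a threshold of 0.05. The SE of a log2 fold change is its absolute value divided by the square root of F. The fit was repeated without sgCEBPD 3. Ratios for single libraries used log2 CPM with a prior count of 2. Alternatives used DESeq2 1.42.0, limma 3.58.1 with voom, other scalings and filters, a prior count of 0.5, sgCEBPD 1, 2 and 4 in place of the controls, guide number as a block, and each library left out. The fitting functions were tested on simulated counts, with changes set in genes drawn from all that passed the filter. With 8 libraries 17.9% of 1.5-fold and 54.5% of 2-fold changes passed the threshold, and with 7 libraries 59.1% and 67.2%. These shares are over genes of all levels and were not worked out for the 38 genes alone. They therefore do not say how large a change in these 38 could be missed. Log2 fold changes of the 38 ran from -0.21 to 0.23 with 8 libraries and from -0.14 to 0.28 with 7. Their median SEs were 0.08 and 0.06.

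Values in every library are given for the 8 members with the lowest and the 3 with the highest ratio in sgCEBPD 3, and for CDK1, CCNB1, PLK1, AURKB, BUB1B, MKI67, TOP2A and FOXM1. HMMR and CDC25C were added after their values were seen. Of other genes, the rule took CEBPD, MYC, E2F1, CCNE1, MCM4 and CDKN1A, and from each contrast list the 2 genes lowest in sgCEBPD 3 with a mean of at least 5 CPM. The members, lists and tests were chosen with earlier results of these data known. Exon overlaps were taken from GENCODE release 29 on GRCh38, and promoters from RefSeq on GRCh38.p14.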

Additional observations from a re-analysis of the deposited data

Results flagged for a closer look

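A library was looked at again where its gap to the nearest of the other 3 in its group was large against the group's range. For the mitosis and spindle genes this held in 7 of 80 groups of 4 libraries, and 4 of the 7 were in sgCEBPD 3. The share over all genes was not counted. Of all genes, 34.9% were below and 34.8% above all 7 other libraries in sgCEBPD 3. No number expected by chance is therefore set beside the 7, and nothing is drawn from it. In sgCEBPD 3, BUB1B was at 86.8 CPM (other sgCEBPD 99 to 101) and CCNA2 at 117 CPM (130 to 131), while NUF2 was at 68.5 CPM (54.9 to 56.6) and TTK at 63.3 CPM (50 to 51.6). In sgCEBPD 2, CDCA8 was at 102 CPM (95.6 to 96.6) and KIF11 at 158 CPM (135 to 138). In sgControl 1, PRC1 was at 1.31 CPM (other controls 0.551 to 0.678), which is 15 counts.

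Genes of the contrast lists were in part chosen for their values in sgCEBPD 3, so no number expected by chance is set beside them. Among them, sgCEBPD 3 was low for CAD at 104 CPM (other sgCEBPD 254 to 273), MCM10 at 28.6 CPM (66.1 to 70.3), MYBL2 at 111 CPM (187 to 202), PKMYT1 at 31.4 CPM (65.5 to 70.8) and CDKN2A at 0 CPM (47.7 to 55.7). It was high for CDKN1A at 463 CPM (159 to 206) and LIN37 at 1.38 CPM (0.662 to 0.777). In sgControl 2, MCM10 was at 63.9 CPM (other controls 71 to 72.2). No explanation was tested.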

How the results depend on the processing

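The count of mitosis and spindle genes past the threshold was 0 in both comparisons under every alternative run, including DESeq2 and limma-voom. In the main fits 0.0795% of all genes passed with 8 libraries and 2.01% with 7, so a count near 0 among 38 genes is also the background. The count over all genes went from 0 to 283 (8 libraries) and from 66 to 312 (7 libraries) as single libraries were left out. DESeq2 called 292 and 596 of all genes, and edgeR without a filter called 20 with 8 libraries. Same-numbered guides did not deviate together (correlations 0.03, 0.06, -0.08 and -0.04, with guide 2 alone best matched to its own number), and with guide number as a replicate block the mitosis count was 0 and all genes had 1 call with 8 libraries and 352 with 7.

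With 8 libraries the MYC list median was -0.19 by limma-voom and -0.19 with the replicate block; library totals gave -0.02 for the mitosis and spindle genes, -0.04 for the other mitosis genes and 0.00 for TOP2A, whose sign turned. BUB1B without sgCEBPD 3 turned sign at -0.01 (library totals), 0.00 (mean of at least 5 CPM) and 0.00 (replicate block). In sgCEBPD 3, library totals gave medians of -0.06 (mitosis and spindle), -0.79 (G1/S), -0.76 (MYC) and -0.19 (other mitosis), against -0.09 for all genes. With them, 17 mitosis and spindle genes were below and 8 above all others, and 2 were over 1.5-fold lower. Shares over all genes were not counted there. No filter gave -0.02 and -0.15 for the mitosis and other mitosis lists. Genes over 1.5-fold lower were 0 with DESeq2 size factors, 0 at a mean of at least 5 CPM and 0 against sgCEBPD 1, 2 and 4, where 1 was over 1.5-fold higher and the median was -0.01.

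Leaving out each library moved log2 fold changes with 8 libraries between -0.01 and 0.12 (AURKB), -0.02 and 0.08 (CCNB1), -0.07 and 0.01 (PLK1), -0.03 and 0.09 (TOP2A), -0.07 and 0.00 (BUB1B) and 0.12 and 0.24 (KIF2C, lowest without sgCEBPD 3). With 7 they lay between -0.05 and 0.04 (CCNB1), -0.01 and 0.01 (BUB1B) and 0.18 and 0.35 (CDC25C, lowest without sgCEBPD 2). List medians with 8 libraries lay between 0.00 and 0.03 (mitosis and spindle), -0.04 and 0.01 (other mitosis), -0.21 and 0.00 (G1/S) and -0.22 and 0.00 (MYC), each 0.00 or 0.01 without sgCEBPD 3, and the MYC median with 7 between -0.04 and 0.02. In sgCEBPD 3 the MYC median lay between -0.71 and -0.66, and 0 to 1 genes were over 1.5-fold lower. CEBPD lay between -0.41 and -0.12 with 8 libraries and -0.61 and -0.15 with 7. The cause of each shift was not tested.

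A median SE of 0.08 limits what 4 against 4 libraries can show, sgCEBPD 3 has no replicate, and counting could not be checked for strand.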
